A study of Mus musculus with 4 samples.

Results

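Control cells carrying the Flk1 receptor were compared with control cells lacking it, by the difference between 1 array of each. The members were all genes with signal on at least 1 of these arrays. One probe set was taken per gene, that with the highest mean over the series' 4 arrays, and signal meant a log2 expression value above 3.19, the 40th percentile of all gene values. This floor left 10622 of 17097 genes. The cells came from mouse embryonic stem cells that formed embryoid bodies in hanging drops and then in suspension, in a medium for spontaneous differentiation. On day 4 the embryoid bodies were taken apart, and an antibody to Flk1 separated the cells. The control line was labelled F/F, which the labels do not explain, and neither control sample carried another stated allele or agent. A Snai1 knockout line, cultured and sorted alike, supplied the other 2 arrays, which stand beside the control values where given. For knockout Flk1- cells the labels give day 4 in one field and day 5 in another. Each group was 1 sample of 1 line, and nothing in the labels says which fractions shared a culture. With 1 array a side no difference has a replicate check, no test was possible, and the 2-fold rule used below is a rule of size only.

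Flk1 is the receptor for vascular endothelial growth factor that is encoded by Kdr. In the gastrulating embryo and in embryoid bodies it marks mesoderm that has left the primitive streak and can form endothelium, blood, heart and smooth muscle. Etv2 and Fli1, transcription factors of the ETS family, act early in the endothelial and blood branch of that mesoderm. Flk1- cells of an embryoid body can be cells that have not become mesoderm, mesoderm before the receptor appears, or descendants that no longer carry it, such as primitive red cells.

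Most genes had similar values in both control fractions. The difference, Flk1+ minus Flk1-, had a median of -0.011 on the log2 scale with quartiles of -0.18 and 0.16, and 9457 genes (89.0%) lay within 0.5. Only 127 genes were 2-fold or more higher in Flk1+ cells, which is 1.20% of the genes tested, and 160 were lower, which is 1.51%. Together they made 2.70%. At 4-fold the counts were 28 higher and 31 lower, and at 8-fold 13 and 10. Of the 127 genes, 40 were below the floor in Flk1- cells, and of the 160 genes, 48 were below it in Flk1+ cells. For these a fold is given as a lower bound against the floor. A list member above the floor on 1 array only had its direction fixed by that filter, so counts and medians over the members above the floor are descriptions. For several lists the median of all measured members, floor or not, is given too, and over all 17097 genes it was 0.0060. Each of the 4 arrays had signal for 10195 to 10302 genes. For Gapdh, the excess of the 3' over the 5' control probe set, a mark of RNA integrity, was 2.05 on the control Flk1+ and 1.76 on the control Flk1- array, both log2. For beta actin the same measure was -0.057 and -0.14, so that pair showed no 3' excess on either array. The part of RNA integrity in the differences was not tested.

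Genes with several probe sets allowed a comparison across the probe sets of a gene. In 3982 genes at least 2 probe sets were above the floor. Around each gene's mean, their Flk1+ minus Flk1- differences had an SD of 0.23 on the log2 scale. This is a spread of differences between 2 arrays, and repeats within an array were not measured. Among genes that were 2-fold higher, 46 had at least 2 probe sets above the floor, and in 44 of them all of these had the same sign. Of the 49 such genes that were lower, 45 did. The exceptions were Dnlz and Ripor1 on the higher side and Gstm1, H2-K1, Mt1 and Ttyh1 on the lower side. The 79 olfactory, vomeronasal and trace amine receptor genes, seldom expressed outside sensory tissue, had differences with an SD of 0.145, the furthest 0.46 from 0. Only 7 of these 79 were above the floor, so they describe dim probe sets. The differences of all genes tested had an SD of 0.32 in the lowest and 0.47 in the highest of 3 equal classes of level.

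**Figure D1:**
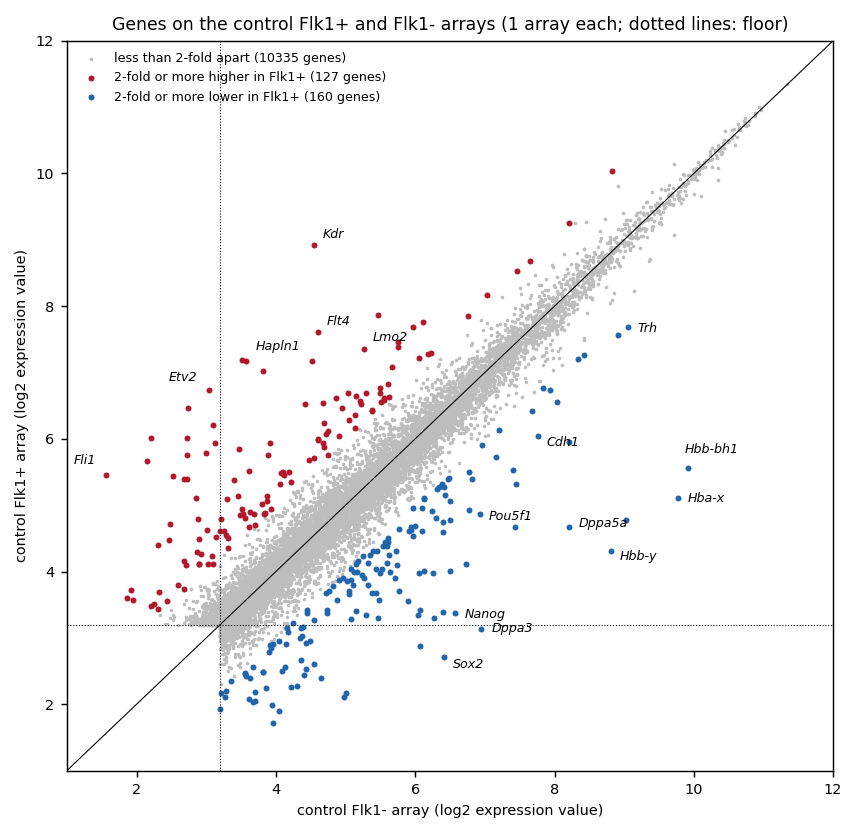
Log2 expression value of each of the 10622 genes on the control Flk1+ array (vertical axis) against the control Flk1- array (horizontal axis), 1 array each, with genes 2-fold or more apart in colour and the floor of 3.19 as dotted lines. Kdr, Etv2, Fli1 and other endothelial genes lie far above the diagonal, and globin and pluripotency genes far below it.

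The sort marker and the hemato-endothelial factors followed the labels. Kdr had a value of 8.92 in the receptor-positive and 4.55 in the receptor-negative control fraction, a 20.8-fold difference. The knockout fractions had 9.03 and 3.88. Kdr transcript was thus above the floor in both control fractions and high in one. The sort used the protein it encodes, so its level is a check of the labels and no finding. Etv2 was at 6.74 and 3.03, at least 11.7-fold higher in Flk1+ cells. Fli1 was at 5.46 and 1.56, at least 4.81-fold higher, and both of its probe sets were higher, by 2.77 and 3.90. Neither factor was above the floor in Flk1- cells of either genotype, with Etv2 at 2.90 and Fli1 at 1.28 in the knockout.

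Of 31 hemato-endothelial transcription factors 25 were above the floor. Of these 11 were 2-fold or more higher in Flk1+ cells, 0 were 2-fold lower, and the median difference was 0.73, against 1.20% higher and a median of -0.011 over all genes tested. Of the 25, 6 were above the floor in Flk1+ cells only. The median of all 31 measured was 0.19, and when probe sets were averaged, or values raised to the floor, it was 0.41 over the 25. Erg, another ETS factor of endothelium, was at 6.47 and 2.74, and Sox18, a vascular SOX factor, was at 6.01 and 2.21. These were at least 9.68-fold and 7.04-fold higher, and both were below the floor in Flk1- cells. Tal1, the basic helix-loop-helix factor required for all blood lineages, was at 5.11 and 2.85, at least 3.78-fold higher. Its partner Lmo2, an adaptor protein of the same complex, was at 7.36 and 5.26, 4.28-fold higher. Unlike Tal1, Lmo2 was well above the floor in control Flk1- cells, and in knockout Flk1- cells it was at 3.30. Gata2, a zinc finger factor of blood progenitors, was 2.60-fold higher, Ets1 4.31-fold and Ets2 2.95-fold higher, and Sox7 at least 1.31-fold higher. Their probe sets spanned 2.25 to 3.73 for Erg, 0.71 to 1.38 for Gata2, 0.68 to 2.44 for Ets1 and 0.32 to 1.63 for Sox7. Of the 25 members 7 were lower, but 3 members were above the floor in Flk1- cells only, which fixed their direction. The set was still not uniform, since of the 16 above the floor on both control arrays 12 were higher and 4 lower. Among the lower members Gata1, the main red cell GATA factor, was at 3.35 in Flk1+ and 4.30 in Flk1- cells. Sox17, a factor of endoderm and of arterial endothelium, was at 6.003 and 6.88.

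Of 46 endothelial surface and junction genes measured, 36 were above the floor in Flk1+ cells and 19 of these also in Flk1- cells. The other 17 passed through the Flk1+ array only, which fixed their direction. Of the 19 above the floor on both arrays 18 were higher in Flk1+ cells, all but Sox17. Of the 36, 19 were 2-fold or more higher, with a median difference of 1.13. The 19 include Kdr, whose protein the sort used. Without the floor 41 of all 46 were higher and the median was 0.81, and with values raised to the floor the median of the 36 was 0.73. In RNA from whole sorted fractions, fewer cells of a type and less RNA per cell cannot be told apart, here or below. Cdh5, the endothelial cadherin, was at 5.76 and 2.72, at least 5.91-fold higher. Flt4, the receptor for lymphatic VEGF, was at 7.61 and 4.60, 8.05-fold higher. Tek, the angiopoietin receptor, was at 5.38 and 3.40, 3.94-fold higher. Cd93 and Ecscr, membrane proteins of endothelial cells, were at least 6.72-fold and 7.06-fold higher, and Calcrl, the adrenomedullin receptor, at least 2.87-fold higher. Probe sets spanned 1.34 to 3.03 for Cdh5, 0.51 to 2.81 for Cd93 and 0.07 to 2.23 for Calcrl. Outside the list Clec1b, a C-type lectin receptor known from platelets, was at 6.21 and 3.10, at least 8.10-fold higher.

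Pecam1, a widely used endothelial adhesion molecule, was the exception among the defining markers. Its control values were 4.27 with Flk1 and 4.12 without, and its knockout values 3.71 and 4.36. It did not separate the fractions as Cdh5 and Tek did, and it is also expressed by undifferentiated stem cells. The labels do not call the Flk1+ cells endothelial, and their pluripotency and cardiac genes are given below.

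The VEGF pathway as a whole showed little beyond its receptors. Of 19 members above the floor 2 were 2-fold higher, Kdr, whose protein the sort used, and Flt4, and the median was 0.17. Flt1, the other VEGF receptor of blood vessels, was at 6.32 and 5.92, a 1.32-fold difference. Vegfa, the main ligand, was at 6.17 in Flk1+ and 6.56 in Flk1- cells, and its probe sets spanned -0.43 to -0.40. The ligand was thus slightly higher on the array of cells without the receptor.

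Regulators of small GTPases that act in vessel formation were also higher in Flk1+ cells. Of 32 above the floor 28 were higher, 6 by 2-fold or more, and the median was 0.38. Of the 32, 3 were above the floor in Flk1+ cells only, which fixed their direction. Among the 29 above it on both control arrays 25 were higher, and the median of all 37 measured was 0.17. Rhoj was at 5.67 and 2.15, at least 5.56-fold higher. Rasip1, a Ras-interacting protein needed for tube formation, was at 5.51 and 3.61, and Fgd5, an exchange factor for Cdc42, at 4.79 and 2.89. Arap3 was 9.29-fold higher, with probe sets spanning 1.35 to 3.22. Rapgef3, which encodes the cAMP-activated exchange factor Epac1, was at least 4.77-fold higher, but its 3 probe sets spanned 0.11 to 2.92. Arhgap29, a binding partner of Rasip1, was at 6.72 and 6.50 and so had nearly the same value in both fractions.

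Other members at the top of the list were no endothelial genes by name. Ctla2a, an inhibitor of cysteine proteases, was at 7.18 and 3.51, 12.7-fold higher, with probe sets spanning 2.94 to 3.67. Hapln1, which links hyaluronan to proteoglycans, was at 7.17 and 3.57, 12.1-fold higher, and Adam12, a membrane metalloprotease, was at 7.18 and 4.52, 6.30-fold higher. Hopx, a small homeodomain protein of cardiac progenitors, was at 5.39 and 2.68, at least 4.59-fold higher, with probe sets spanning 1.25 to 2.71. Klhl6 and Shank3 were at least 6.04-fold and 4.61-fold higher, and Fam43a was 5.20-fold higher. Dnlz was 5.30-fold higher on the probe set used, at 7.87 and 5.46, but its probe sets spanned -0.21 to 2.41, so its direction depends on the probe set.

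**Figure D2:**
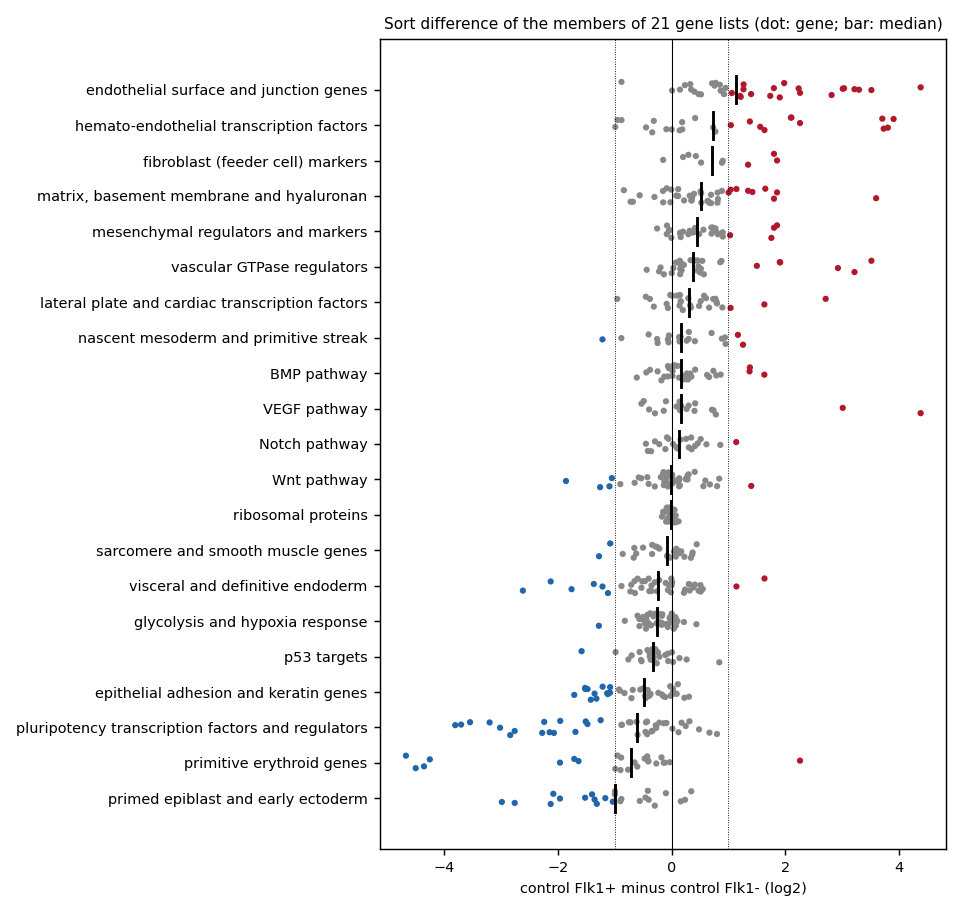
Difference between control Flk1+ and control Flk1- cells on the log2 scale (horizontal axis) for the members above the floor of 21 gene lists (vertical axis), with a dot for each gene and a bar for the list's median. Endothelial genes lie mostly right of 0, with a median of 1.13, and primed epiblast genes mostly left, with a median of -0.996.

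Genes of the primitive streak and of nascent mesoderm were close in both fractions. Of 21 above the floor 13 were higher, 2 of them 2-fold, 1 was 2-fold lower, and the median was 0.16. Eomes, a T-box factor of the streak, was at 7.21 and 6.05, 2.24-fold higher, and Mixl1, a homeobox factor of mesendoderm, was at 5.31 and 4.06, 2.39-fold higher. Mesp1, a factor of early cardiovascular mesoderm, was at 5.25 and 4.37, 1.85-fold higher. The member that was 2-fold lower was Foxa2, which also marks endoderm, at 3.87 and 5.08. Of 32 members measured 21 were above the floor on both control arrays and 0 on only 1 of them. The other members were below it in both fractions.

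Of 30 transcription factors of lateral plate and cardiac mesoderm above the floor, 23 were higher, 3 by 2-fold or more, and the median was 0.31. Msx1, a homeobox factor induced by BMP, was at 7.38 and 5.75, 3.10-fold higher. Hand1, a factor of extraembryonic and lateral mesoderm, was at 9.25 and 8.21, 2.05-fold higher, and Gata4, a factor of heart and endoderm, was at 6.92 and 6.41. Hopx is the other 2-fold member. Nkx2-5 was at 2.89 and 3.27 and Tbx5 at 2.47 and 2.75, both near or below the floor in both fractions.

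Contractile genes did not follow these factors. Of 27 sarcomere and smooth muscle genes above the floor 12 were higher and 15 lower, with 0 higher and 2 lower by 2-fold and a median of -0.07. Actc1, cardiac actin, was at 5.15 in Flk1+ and 6.43 in Flk1- cells, 2.42-fold lower in Flk1+ cells. Tnnc1, the troponin C of heart and slow muscle, was at 5.41 and 6.49, 2.11-fold lower. Tnnt2, cardiac troponin T, was at 6.88 and 7.39, and Myl4, the atrial light chain, at 6.08 and 6.70. Acta2, smooth muscle actin, was at 6.45 and 6.08. All of these were above the floor in both control fractions. Paraxial mesoderm genes had a median of 0.16 over 13 members, with 1 at 2-fold, the Wnt agonist Rspo3, at 5.51 and 4.11. Of its 2 probe sets the other differed by 0.26. Tbx6 was below the floor on both control arrays.

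Mesenchymal and matrix genes were higher in Flk1+ cells. Of 30 mesenchymal members 24 were higher, 4 by 2-fold, with a median of 0.45. Vim, the intermediate filament of mesenchyme, was at 9.81 and 8.91, Cdh11 was at 6.61 and 4.86, and Zeb1, a repressor of epithelial genes, was at 6.41 and 5.39. Probe sets spanned 1.16 to 1.75 for Cdh11 and 0.41 to 1.03 for Zeb1. Snai1 itself was at 2.56 and 2.42 in control cells, below the floor on all 4 arrays. It therefore gave no measure of the gene deleted in the other line. Cdh2, the cadherin of mesenchymal and neural cells, was at 7.75 and 7.03, 1.65-fold higher.

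Matrix genes had a median of 0.51, and of 41 above the floor 31 were higher, 9 of them 2-fold, with 0 lower by 2-fold. The median of all 57 measured was 0.24. The basement membrane genes Col4a1, Col4a2 and Nid1 were 2.20-fold, 3.13-fold and 2.68-fold higher. Col4a2 was at 6.69 and 5.04. The fibrillar collagen Col1a1 was at 6.53 and 4.68, 3.61-fold higher, and Col3a1 was at 5.10 and 3.30, 3.48-fold higher, although its probe sets spanned 0.26 to 1.80. Fn1, fibronectin, was at 9.26 and 8.45 and Lama1 at 5.17 and 4.67. Integrins and matrix proteases differed less, with a median of 0.14 over 30 members and only Adam12 at 2-fold. Markers of feeder fibroblasts moved with the matrix genes. Of 10 above the floor 9 were higher, 3 by 2-fold, with a median of 0.70 (0.20 over all 23 measured), and their mean level was 4.87 in Flk1+ and 4.06 in Flk1- cells. The 3 were Col1a1, Col3a1 and Postn, all matrix genes too, while the defining markers Thy1 (2.55 and 2.39) and Dcn (3.06 and 3.004) were below the floor on both arrays. The part of such cells in the matrix differences was not tested.

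Among ligands and receptors the differences were few. Of 32 BMP pathway members 23 were higher, 3 by 2-fold, with a median of 0.17. Bmp2, a BMP ligand, was at 6.57 and 5.20, 2.59-fold higher, Bmp4 was at 8.62 and 7.96, and the inhibitor Smad6 was at 5.59 and 4.86. Id1, a BMP target, ran the other way at 5.91 and 6.29. The Notch list had a median of 0.13 over 22 members, with 1 at 2-fold, the effector Hey2, at 6.04 and 4.90. The receptor Notch1 was at 5.70 and 5.09, the ligand Dll4 at 3.99 and 3.64, and the effector Hey1 at 7.39 and 6.97.

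The Nodal, activin and TGF-beta list was balanced, with 14 higher, 13 lower and a median of 0.0096. Eomes and Mixl1 were 2-fold higher and Cer1 and Gdf3 2-fold lower by the rule. Gdf3 was at 2.39 and 3.63, below the floor in Flk1+ cells and so at least 1.36-fold lower, with probe sets at -1.25 and -0.65. Cer1, a secreted antagonist of Nodal and BMP, was at 5.32 and 7.45, 4.36-fold lower, with probe sets spanning -2.50 to -2.13. Nodal was at 4.45 and 5.33, but its probe sets spanned -0.88 to 0.05. The antagonists Lefty1 and Lefty2 were close, at 3.65 and 4.00 and at 4.90 and 5.04.

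Of 27 FGF and ERK feedback genes 12 were higher and 15 lower, with 2 higher and 1 lower by 2-fold and a median of -0.19 (0.024 over all 36 measured). Fgf3 was at 5.45 and 4.11, with probe sets spanning 0.07 to 1.34. Fgf5, a ligand of the primed epiblast, was at 7.26 and 8.43, 2.24-fold lower, with probe sets at -1.16 and -0.52. Myc, the growth regulator, was at 7.86 and 6.76, 2.14-fold higher. The feedback genes were split, with Spry4 at 4.72 and 4.22 and Dusp6 at 5.55 and 6.06.

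In the Wnt list 1 of 45 members was 2-fold higher and 4 were 2-fold lower, with a median of -0.018. Rspo3 was the higher one. The lower ones were the receptors Fzd5, at 4.92 and 6.78, and Fzd8, at 4.03 and 5.08, and the secreted inhibitors Sfrp1, at 6.42 and 7.68, and Sfrp5, at 3.08 and 4.17. Sfrp5 was below the floor in Flk1+ cells and so at least 1.97-fold lower. The probe sets of Fzd5 were at -1.86 and -0.53. The target gene Axin2 was at 5.41 and 5.48 and the antagonist Dkk1 at 5.78 and 6.07, close in both fractions. No member of the retinoic acid and Hox list was 2-fold apart (0 of 26), with a median of 0.18.

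Guidance and chemokine genes went both ways, 3 of 49 higher and 3 lower by 2-fold, with a median of 0.055. Sema5a was 3.68-fold higher, with probe sets spanning 0.23 to 1.88, Plxnd1, a semaphorin receptor of endothelium, was at 5.94 and 4.67, and the chemokine scavenger Ackr3 was at 6.70 and 5.50. Ntn1, netrin 1, was at least 2.73-fold lower on the probe set used, with another at -0.12. Apela was at 6.14 and 7.21, 2.10-fold lower, and its receptor Aplnr was at 9.25 and 8.30, 1.93-fold higher. Ligand and receptor thus had their higher values in different fractions. Among cytokine receptors and related ligands Igf1 was at 4.61 and 3.20, 2.65-fold higher, with probe sets spanning 0.28 to 1.41. Pdgfra was at 4.62 and 4.67 and Kit at 4.91 and 5.16, and neither separated the fractions.

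Red cell genes were lower in Flk1+ cells, the globins furthest. Hba-x, the embryonic alpha globin, was at 5.11 in Flk1+ and 9.77 in Flk1- cells, 25.4-fold lower. Hbb-bh1, an embryonic beta globin, was at 5.56 and 9.91, 20.4-fold lower, and Hbb-y, the other embryonic beta globin, was at 4.31 and 8.80, 22.6-fold lower. Hba-a1, the adult alpha globin, was at 4.78 and 9.02, a difference of -4.25 on the log2 scale. Probe sets spanned -4.64 to -2.68 for Hbb-y and -5.65 to -3.56 for Hba-a1, and without those ending in _s_at or _x_at Hbb-y differed by -2.68. Both control fractions were above the floor for these 4 globins and far apart. Globin copies are near identical, so probes of one can bind transcripts of another. Klf1, which switches on red cell genes, was at 2.44 and 4.40, at least 2.31-fold lower, and Alas2, the red cell enzyme of heme synthesis, at 2.03 and 3.67. Of 24 members above the floor, 4 were above it in Flk1- cells only and 1 in Flk1+ cells only. Of the 24, 23 were lower, 7 by 2-fold, with a median of -0.71 (-0.47 over all 31 measured). The single higher member was Tal1, which other blood and endothelial cells express. In knockout cells the list's median was -0.012, and Hba-x was at 1.97 and 2.01.

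White cell and platelet genes gave no such pattern. Of 27 measured members 11 were above the floor, 6 were higher and 5 lower, 0 were 2-fold apart, and the median was 0.0043. Ptprc, the pan-leukocyte marker CD45, was at 2.42 and 2.53, below the floor on both control arrays. Itga2b, an early platelet and blood progenitor integrin, was at 3.87 and 3.86, and Csf1r, the macrophage growth factor receptor, at 3.10 and 3.29.

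**Figure D3:**
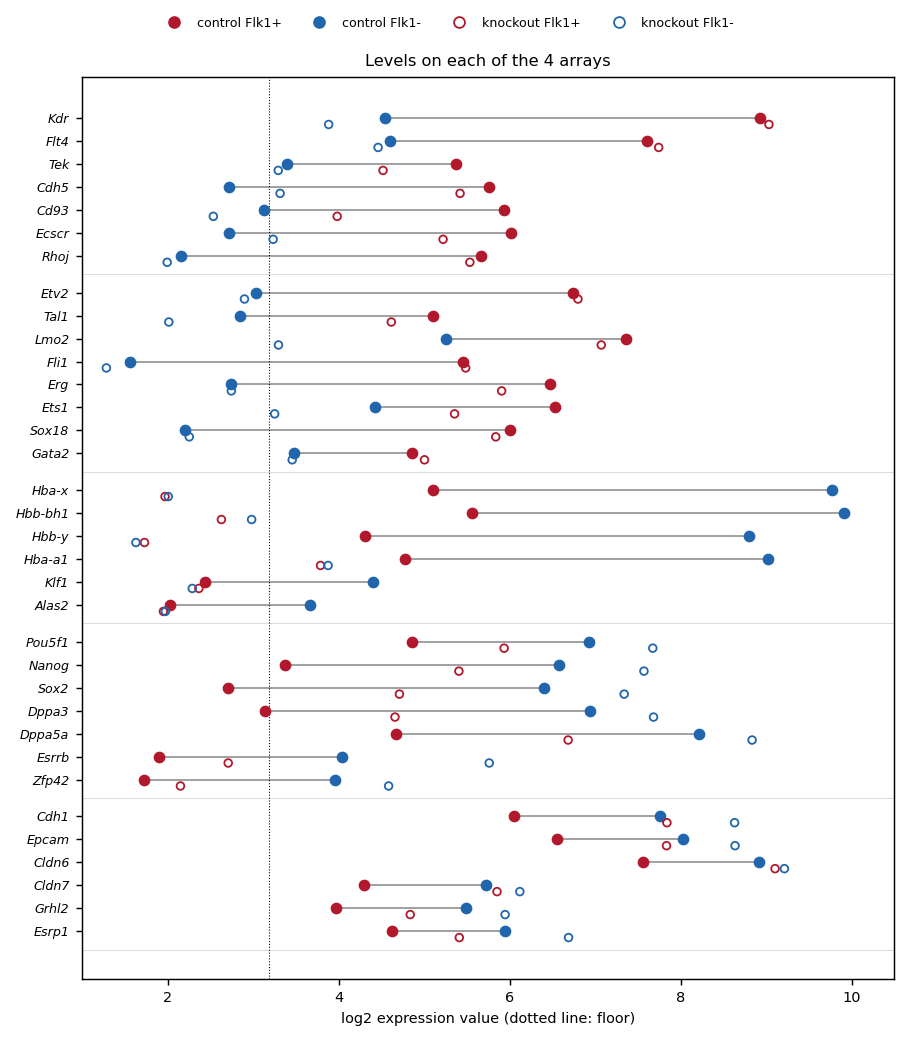
Log2 expression value (horizontal axis) of representative genes (vertical axis) on each of the 4 arrays, with 1 marker for each array and the floor of 3.19 as a dotted line. Kdr is at 8.92 and 9.03 in the Flk1+ fractions, while Hba-x is at 9.77 in control Flk1- cells and below the floor in both knockout fractions.

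Genes of undifferentiated cells were lower in Flk1+ cells. Of 41 pluripotency factors and regulators above the floor 33 were lower, 16 by 2-fold, 0 were 2-fold higher, and the median was -0.62. All but 1 of the 41 were above the floor in Flk1- cells, and 30 were in Flk1+ cells. The 11 above it in Flk1- cells only had their direction fixed by the filter. Among the 29 above the floor on both control arrays 22 were lower, and the median of all 48 measured was -0.46. Nanog, a homeobox factor of the naive state, was at 3.38 and 6.57, 9.18-fold lower. Sox2 was at 2.71 and 6.41, at least 9.29-fold lower, and Pou5f1, which encodes Oct4, was at 4.86 and 6.93, 4.19-fold lower. Sox2 was thus below the floor in Flk1+ cells, Nanog just above it, and Pou5f1 well above it. Dppa3 was at least 13.5-fold lower, Dppa5a 11.6-fold, L1td1 8.08-fold and Utf1 6.76-fold lower. Esrrb and Zfp42, markers of the naive state, were at 1.90 and 4.04 and at 1.72 and 3.96, with the probe sets of Esrrb at -2.14 and -0.32.

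The primed epiblast and early ectoderm list had a median of -0.996, and 11 of its 24 members were 2-fold lower. Slc7a3, an amino acid transporter, was at 3.29 and 6.28, and Pim2, a kinase, at 3.97 and 6.05, 7.91-fold and 4.22-fold lower. Pou3f1 was at 3.57 and 4.88, with probe sets at -1.31 and -0.19, and Otx2, a factor of anterior epiblast, at 7.11 and 8.10. Otx2 differed by -0.995, just short of the 2-fold rule. Of 15 germ cell genes above the floor, 5 were above it in Flk1- cells only. Of the 15, 14 were lower, 6 by 2-fold, with a median of -0.76, but Pou5f1, Sox2 and Dppa3 are among the 6. That median was -1.37 under a higher floor, the median value, and -0.34 over all 23 measured. The other three were Tfap2c, at 3.40 and 5.15, Tdrd12, at 2.52 and 4.43, and Mageb16, at 2.11 and 4.98. Prdm1, the germ cell specifier that is also made in endoderm, was at 5.33 and 5.59. Neuroectoderm genes had a median of -0.14 (0.022 over all 36 measured), and the 2 of 16 members at 2-fold were Sox2 and Hesx1, which the pluripotency and epiblast lists also hold. Hesx1 was at 2.17 and 3.20, barely above the floor in Flk1- cells, so its lower bound was only 1.01-fold. Sox1, the defining neural plate factor, was at 2.19 and 2.05, below the floor, and Pax6 was at 3.57 and 3.68.

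Endoderm genes were mixed. Of 42 above the floor 15 were higher and 27 lower, 2 and 6 by 2-fold, with a median of -0.24 (-0.055 over all 52 measured). Lower were Foxa2, Foxa1 (2.56 and 3.68, at least 1.40-fold), Trh (7.69 and 9.06, 2.58-fold) and Pga5 (3.68 and 5.44, 3.38-fold). Rhox5 (4.12 and 6.73, 6.12-fold) and Cer1 were lower too. The 2 higher members, Sox7 and Col4a1, are also genes of endothelium and basement membrane. The yolk sac gene Ttr was at 6.89 and 7.36, and Afp was at 3.29 and 2.90, near the floor. Of 13 trophoblast genes 3 were higher and 3 lower by 2-fold, with a median of -0.15 (0.0083 over all 24 measured). Cdx2 was at 3.66 and 3.25 and Elf5, a defining factor, was below the floor in both fractions.

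Epithelial genes were lower in Flk1+ cells too. Of 38 above the floor 30 were lower, 12 by 2-fold, 0 were 2-fold higher, and the median was -0.48 (-0.39 over all 47 measured). Among the 35 above the floor on both control arrays 27 were lower. Cdh1, the epithelial cadherin, was at 6.05 and 7.76, 3.27-fold lower. Epcam, an adhesion molecule of epithelia and stem cells, was at 6.55 and 8.03, 2.78-fold lower. The tight junction genes Cldn6 and Cldn7 were at 7.56 and 8.92 and at 4.30 and 5.72. All of these were well above the floor in both fractions. Grhl2 and Grhl3, grainyhead factors of epithelia, were at 3.97 and 5.49 and at 2.18 and 3.70, with the probe sets of Grhl2 at -1.52 and -0.31. Esrp1, an epithelial splicing regulator, was 2.50-fold lower and Rab25, an epithelial trafficking GTPase, at least 2.24-fold lower. The keratin gene Krt8 was at 8.26 and 8.15 and did not follow the adhesion genes.

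The promoters of genes that were 2-fold lower were read for the E2-box, CAGGTG on either strand, the sequence that Snail and ZEB repressors are known to bind. Windows of 250 bases before each RefSeq start of a gene (GRCm38.p6) were searched, and 8611 of the genes tested had at least 1. A gene with several windows held a motif if any of them matched. Cldn7 and Nanog, for example, have 2 windows each. The E2-box was in 18.6% of the 8611 genes, in 11 of 89 genes (12.4%) that were 2-fold higher and in 39 of 122 (32.0%) that were 2-fold lower. Of 7 epithelial genes that were 2-fold lower and had a window, 6 held it, all but Spint1. They were Ap1m2, Cldn6, Cldn7, Epcam, Grhl3 and Rab25. Of the 26 epithelial genes above the floor with a window 18 (69.2%) held it. These 4 windows are shown as examples from the 6 genes with a match. Capitals mark each match, read on the strand shown as CAGGTG or as its reverse complement CACCTG.
Epcam: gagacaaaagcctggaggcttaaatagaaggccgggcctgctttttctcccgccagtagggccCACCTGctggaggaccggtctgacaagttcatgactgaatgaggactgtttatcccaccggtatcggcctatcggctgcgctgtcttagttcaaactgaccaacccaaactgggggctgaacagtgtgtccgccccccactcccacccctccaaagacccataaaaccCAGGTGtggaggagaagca
Cldn6: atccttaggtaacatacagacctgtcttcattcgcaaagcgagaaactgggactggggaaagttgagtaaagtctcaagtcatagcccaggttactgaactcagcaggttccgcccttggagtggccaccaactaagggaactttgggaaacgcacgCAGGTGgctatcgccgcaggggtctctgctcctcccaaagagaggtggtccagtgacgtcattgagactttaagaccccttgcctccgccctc
Cldn7: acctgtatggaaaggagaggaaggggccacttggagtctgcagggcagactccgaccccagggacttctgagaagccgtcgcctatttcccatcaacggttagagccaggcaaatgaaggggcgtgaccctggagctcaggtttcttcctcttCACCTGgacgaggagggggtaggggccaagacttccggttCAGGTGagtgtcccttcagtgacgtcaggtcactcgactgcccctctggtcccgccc
Grhl3: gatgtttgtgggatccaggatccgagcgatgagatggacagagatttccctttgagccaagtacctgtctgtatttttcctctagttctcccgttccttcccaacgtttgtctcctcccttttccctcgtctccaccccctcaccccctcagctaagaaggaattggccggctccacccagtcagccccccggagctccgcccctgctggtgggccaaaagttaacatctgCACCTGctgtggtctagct
They lie at chr17:87635729-87635978 (+ strand), chr17:23679115-23679364 (+ strand), chr11:69965171-69965420 (+ strand) and chr4:135573633-135573882 (- strand), each read 5' to 3' towards the gene. Epcam and Cldn7 have 2 matches each, and the nearest begin 19 and 57 bases before the start. In Cldn6 the match begins 93 bases before the start, and in Grhl3 19 bases. A match is a description of letters, and binding was not measured.

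Another 6 motifs were searched on both strands in the same windows. All motifs were chosen with the differences known, and no test was made on them. The octamer half-site of Oct4, TTTGCAT, was in 3.54% of tested genes, 3 of 89 higher genes (3.37%) and 14 of the 122 lower genes (11.5%). It was in 3 of 9 lower pluripotency genes, Nanog, Sox2 and Zfp42. The ETS motif AGGAAGT was in 8.20% of tested genes, 12 of 89 higher genes (13.5%) and 14 of 122 lower genes (11.5%). The longer ETS motif CCGGAAGT was in 6.61% of tested, 1.12% of higher and 2.46% of lower genes. The GATA motif AGATAA was in 6.98%, 11.2% and 7.38% in the same order, the CACCC box CCACACCC in 4.11%, 5.62% and 3.28%, and the TATA box TATAAA in 8.13%, 13.5% and 9.02%. Over all 27025 genes with a window, whether on the array or not, the shares were 19.4% for the E2-box, 4.65% for the octamer half-site, 8.80% and 3.23% for the ETS motifs, 11.4% for GATA, 3.68% for the CACCC box and 14.3% for the TATA box. The E2-box and the octamer half-site were thus more frequent in lower than in higher genes, and the shorter ETS motif was similar in both. The GATA motif, the CACCC box and the TATA box were more frequent in higher than in lower genes. Nanog and Rhoj are shown as a lower gene with an octamer half-site and a higher gene with an ETS motif, each in capitals.
Nanog: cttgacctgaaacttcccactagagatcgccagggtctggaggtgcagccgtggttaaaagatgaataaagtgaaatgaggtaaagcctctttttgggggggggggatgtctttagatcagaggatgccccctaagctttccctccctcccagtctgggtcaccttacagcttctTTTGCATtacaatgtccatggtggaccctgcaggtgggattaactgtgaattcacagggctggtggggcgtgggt
Rhoj: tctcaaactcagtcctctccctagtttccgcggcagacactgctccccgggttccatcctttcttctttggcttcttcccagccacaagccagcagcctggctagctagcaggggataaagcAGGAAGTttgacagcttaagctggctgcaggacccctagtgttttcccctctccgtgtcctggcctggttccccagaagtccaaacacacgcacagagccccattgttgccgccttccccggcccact
The windows lie at chr6:122707239-122707488 (+ strand) and chr12:75308063-75308312 (+ strand). Their matches begin 75 and 128 bases before the start. The Nanog window also holds an E2-box, left in lower case here.

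Lists of general cell functions were close to 0. Ribosomal protein genes had a median of -0.016 over 38 members and mitochondrial respiration genes -0.045 over 48, with 0 members of either at 2-fold. S phase genes had a median of -0.071 and G2 and M phase genes 0.062, again with 0 at 2-fold among 42 and 36 members. Pcna was at 8.84 and 8.91 and Cdk1 at 7.61 and 7.17. Cholesterol and fatty acid synthesis had a median of -0.15 and chromatin genes -0.073, with 0 at 2-fold in either. Dnmt3b, the DNA methyltransferase of the epiblast, was at 8.24 and 9.14. Of the reference genes Gapdh was at 11.35 and 11.34, Actb at 10.65 and 10.55, and Hprt at 6.47 and 7.22.

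Glycolysis and hypoxia genes were lower as a list but by little. Of 40 above the floor 31 were lower, 1 by 2-fold, with a median of -0.25. That member was Eno2, at 3.95 and 5.23, while Slc2a1, the glucose transporter, was at 9.95 and 10.01 and Pgk1 at 10.09 and 10.25. Of 27 p53 targets 22 were lower, 1 by 2-fold, with a median of -0.32. Cdkn1a, the cell cycle inhibitor p21, was at 4.84 and 5.37. Gadd45a, the 2-fold member, was at 2.51 and 4.09, below the floor in Flk1+ cells and so at least 1.86-fold lower. Immediate early and stress genes had a median of -0.22, with Nr4a1 and Myc 2-fold higher and Hspb1 and Gadd45a 2-fold lower, the probe sets of Hspb1 spanning -1.80 to -0.63. Fos, Jun and Egr1 were at 5.31 and 5.66, 7.94 and 7.95, and 6.96 and 7.26. Imprinted genes had a median of 0.058, with Phlda2 at 7.28 and 6.19 and Ascl2 at 3.80 and 5.10, with probe sets of Ascl2 spanning -1.30 to -0.03. Igf2 was at 10.64 and 10.45, Peg3 at 8.82 and 9.01, and Dlk1 at 7.79 and 6.94.

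Some of the 2-fold genes were in no list and were picked out after their values were seen. Ina and Nefl, neurofilament subunits, were at 3.70 and 5.77 and at 3.70 and 5.05 in Flk1+ and Flk1- cells. Uchl1, a ubiquitin hydrolase of neurons and germ cells, was at 2.08 and 3.62. These were lower in Flk1+ cells, where Uchl1 was below the floor. The neuroectoderm list did not share this direction, with 19 of 36 measured members higher, 17 lower and a median of 0.022, and Sox1 was below the floor. The glutathione genes Gstm3, at 3.28 and 5.08, and Gclm, at 4.45 and 5.61, were lower too. Gstm1 was at 4.78 and 6.50 and the metallothionein Mt1 at 5.96 and 8.21, but a probe set of each had the opposite sign, 0.11 and 0.04. Erbb3, a receptor of neuregulin, was 5.09-fold lower, with probe sets at -2.35 and -0.48, Mreg 6.51-fold and Trap1a 6.30-fold lower. Higher were Vav3, an exchange factor for Rac, at 6.47 and 4.96, the thrombin receptor F2r at 8.53 and 7.46, and Lcp1, an actin bundler of blood cells, at 6.12 and 4.75. Igfbp4 was at 10.04 and 8.82, and Igfbp2 and Igfbp3 were lower, at 6.76 and 7.84 and at 2.49 and 3.82.

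Near the limits of the rules, the last higher genes inside 2-fold were Ccdc93 and Col23a1, at 1.0001 and 1.002, and the first outside were Nfkbie at 0.998 and Tgfb1 at 0.99. On the lower side Diaph1 and Smim22, both at -1.01, were inside, and Ifitm3 and Parm1, both at -0.998, were outside. Just above the floor were Ccdc89 and Hoxa9, and just below it Jrk and Kctd12b. With the genes split by level into 3 classes of equal size, 1.67% of the lowest, 3.05% of the middle and 3.39% of the highest class were 2-fold apart.

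The same sort in knockout cells gave 1.62% of genes 2-fold higher in Flk1+ cells and 2.17% lower, together 3.79%. Of the 127 genes higher in control Flk1+ cells, 116 had the same sign in the knockout, 77 of them at 2-fold, and the median difference was 1.37 in control and 1.26 in knockout cells. Of the 160 lower genes 155 had the same sign, 81 at 2-fold, and the medians were -1.35 and -1.01. Both sets were chosen by their control difference, which tends to enlarge the control medians. The pairs of medians therefore do not compare the strength of the 2 sort differences. The number of genes with 2-fold differences of opposite sign was 0. The remaining 11 and 5 genes had opposite signs. Below the floor on both knockout arrays were 11 of the 127 genes and 6 of the 160. Their knockout signs carry no measurement, whichever count they fall in. The control and knockout comparisons share no array, but both lines were sorted alike. The difference between the comparisons was not tested, because each has 1 array a side.

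The median of the endothelial surface and junction list was 1.13 in control and 1.05 in knockout cells over the same 36 genes, and Etv2 had knockout values of 6.80 with Flk1 and 2.90 without. Pluripotency genes had medians of -0.62 and -0.86, with Nanog at 5.41 and 7.57 in the knockout against 3.38 and 6.57 in the control. Some genes that were 2-fold apart in control cells had no measurable difference in the knockout, being below the floor in both fractions. They included Hbb-y at 1.73 and 1.63, Col3a1 at 3.04 and 2.85 and Actc1 at 2.29 and 2.52. Others were above the floor with close values, Hba-a1 at 3.79 and 3.88 and Eomes at 6.39 and 6.39. Cldn6 was at 9.10 and 9.21 in the knockout, so its control difference of -1.35 stood beside one of -0.11. Adam12 was further apart in the knockout, at 6.68 and 2.12. The day named for knockout Flk1- cells is uncertain, and its part in these values was not tested.

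**Figure D4:**
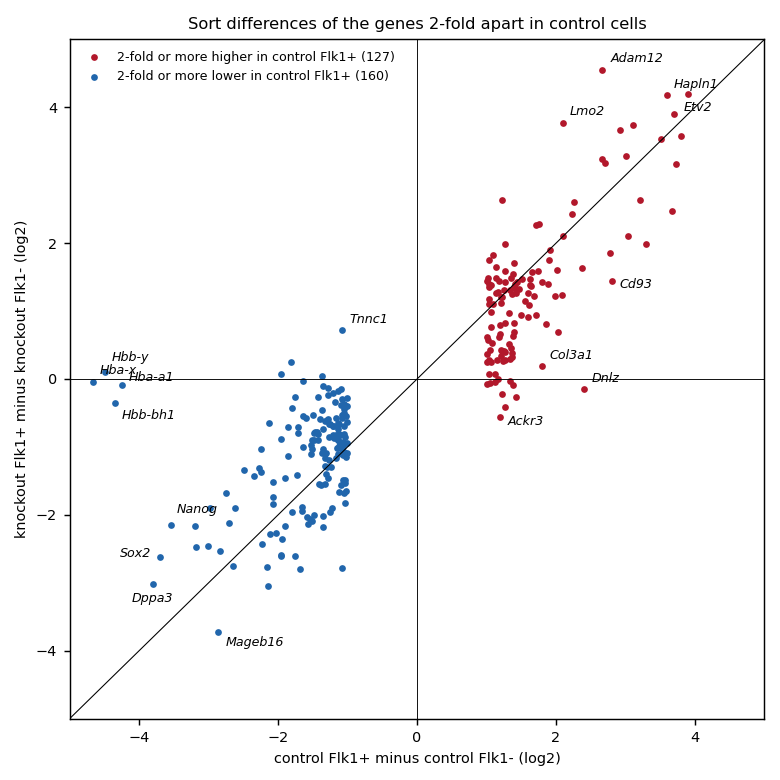
Sort difference in knockout cells (vertical axis) against that in control cells (horizontal axis), both log2, for the 127 higher and 160 lower genes, with a dot for each gene. Most lie in the quadrants of equal sign, and 4 globin genes lie near 0 on the vertical axis at -4.25 to -4.67 on the horizontal one.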

How the data were processed

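RNA from 4 sorted samples was measured on 1 Affymetrix array each, starting from 50 ng of total RNA, per the labels' protocols. The authors deposited log2 expression values for 45141 probe sets. The submitters' processing notes name RMA and limma without saying for which step or in which version. These values were used as deposited. Control probe sets (104), probe sets of several genes (551) and probe sets of no gene (15588) were left out, and 28898 with 1 gene gave 17097 genes, 16936 of them matched to RefSeq's mouse gene table. The floor was 3.19, and a call needed a log2 difference of at least 1. Genes were named by a rule: the 3 markers, the 25 furthest apart each way, fixed members and up to 8 members at 2-fold of each of 40 lists, and genes next to a limit. Other genes were named after their values were seen, as stated there. The members and lists were chosen with earlier results of these data known. The precision is limited by the number of arrays.

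Python 3.11.15, numpy 2.4.6, pandas 2.3.3 and matplotlib 3.10.9 were used, with R 4.3.3 and limma 3.58.1 for quantile and cyclic loess normalization (span 0.3, 3 rounds). The counting was tested on simulated data. The alternatives tried were a 1.5-fold or 3-fold rule, no floor or one at the median, both normalizations, median centring, other choices of probe set, leaving out probe sets whose names end in _s_at or _x_at, and raising values to the floor. The RefSeq promoters of Fli1, Cdh5, Sox18, Lmo2, Hbb-bh1 and Cdh1 were not used here.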

Additional observations from a re-analysis of the deposited data

Results flagged for a closer look

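Of the genes that were 2-fold apart between the control fractions, 11 higher and 5 lower ones had the opposite sign in knockout cells. Given first are those above the floor on at least 1 knockout array. The values are knockout Flk1+ minus knockout Flk1- on the log2 scale. Each side has 1 array, so whether the sort difference differs between the lines was not tested. Higher in control Flk1+ cells, but with negative values in the knockout, were Ackr3 (-0.57), Cmc4 (-0.41), Dnlz (-0.15), Apcdd1 (-0.090), Ccdc93 (-0.070), Syde1 (-0.053), Postn (-0.033) and Eomes (-0.0044). Of these, Dnlz and Ccdc93 had probe sets of both signs in control cells. Lower in control Flk1+ cells, but with positive values in the knockout, were Tnnc1 (0.72), Hbb-b2 (0.25) and Trh (0.044). The others, Bnc1, Zcchc12, Zfp948, Hbb-y and Klf1, were below the floor on both knockout arrays, so their signs carry no measurement. Among the lists, the median of nascent mesoderm and primitive streak genes was 0.16 in control and -0.0044 in knockout cells. The median of endoderm genes was -0.24 in control and 0.014 in knockout cells, both over the 42 above the floor on at least 1 control array. Over all 52 measured the control median was -0.055.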

How the results depend on the processing

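At the 1.5-fold rule 370 genes were higher and 506 lower, and at the 3-fold rule 47 and 55. Under the other 9 alternatives the counts stayed within 1.5 times the 127 and 160 reported, from 104 to 139 higher and from 121 to 163 lower. The calls were not all kept: of 278 with a value, 214 were still 2-fold apart with the mean of all probe sets of a gene, and of 287, 241 with values raised to the floor. Centring each array on the median of genes above the floor gave 139 higher and 138 lower, so 50.2% of the calls were higher against 44.3% as deposited, and the median of all genes moved from -0.011 to 0.053. Without a floor the medians of 3 lists changed sign, neuroectoderm to 0.022, trophoblast to 0.0083 and FGF and ERK feedback to 0.024. Another 6 list medians moved, to 0.19 for hemato-endothelial factors, 0.81 for endothelial, -0.47 for erythroid, -0.34 for germ cell, 0.20 for fibroblast and 0.24 for matrix genes. With the mean of all probe sets, 51 of 216 named genes moved, and the primed epiblast median was -0.70. Without probe sets ending in _s_at or _x_at, Mt1 had a difference of 0.035 and Smim22 one of 0.034, each read from another probe set. No paired analysis was possible because each group has 1 array. The number of arrays limits every value, since the spread between cultures or sorts was not measured, and dim genes near the floor carry the least information.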

Other observations

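Probe sets without a gene in the annotation were compared in the same way. Of 15588 such probe sets 5539 were above the floor, 40 were 2-fold or more higher in Flk1+ cells and 71 lower. Together these made 2.0% of the 5539, against 2.70% of the genes tested. The furthest higher was a probe set with values of 7.83 in Flk1+ and 4.11 in Flk1- cells, and the furthest lower was a probe set with 6.06 and 9.82. Of 551 probe sets paired with several genes 363 were above the floor, 1 was 2-fold higher and 12 were lower, together 3.58% of the 363.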
